A study of Schizosaccharomyces pombe with 4 samples.

Results

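The 10 genes described here encode enzymes of glycolysis and of ethanol fermentation in the fission yeast Schizosaccharomyces pombe: fba1, tpi1, tdh1, gpd3, pgk1, gpm1, eno101, pyk1, pdc101 and adh1. They were taken as a list by name, chosen with earlier results of these data known, so shares set against all genes are descriptive. The measured value of a gene was the mean over the array probes whose centres lie within its annotated limits. All 10 were measured, among 4864 protein-coding genes with at least 2 probes. Glycolysis splits glucose into pyruvate, and its later steps, from fructose bisphosphate to pyruvate, are catalysed in order by aldolase, triosephosphate isomerase, glyceraldehyde-3-phosphate dehydrogenase, phosphoglycerate kinase, phosphoglycerate mutase, enolase and pyruvate kinase. In fermenting yeasts pyruvate decarboxylase and alcohol dehydrogenase then turn pyruvate into ethanol, which restores the NAD+ that glycolysis uses. The genes of these enzymes are among the most strongly transcribed in yeast cells grown on glucose.

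The study mapped the recombination protein Rad52 on DNA by chromatin immunoprecipitation (ChIP) and tiling arrays. Rad52 acts in homologous recombination and binds single-stranded DNA, as it arises at breaks and at damaged replication forks. The ChIP DNA of 2 arrays came from cdc25-22 rif1Δ cells, and that of the other 2 from cdc25-22 rif1Δ rad3Δ cells. Rif1 limits the firing of replication origins, and Rad3 is the fission yeast relative of the checkpoint kinase ATR. All cells therefore carried cdc25-22, a temperature-sensitive allele of the phosphatase gene that drives entry into mitosis, and lacked Rif1. Cultures in EMM6S medium at 25 °C were held for 4 h at 36.5 °C, returned to 25 °C and given 6 mM hydroxyurea, which blocks the synthesis of deoxynucleotides. The time of sampling after release and the antibody are not given in the sources used here. No arrays of cells with Rif1, of untreated cells or of a control precipitation were analysed here, so each value is relative to the rest of the same array.

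Before the results, the labels were checked on the deleted genes. In the ChIP channel of the 4 arrays the geometric mean signal over rif1 was 1.93% to 3.80% of the median probe, so both strains lacked most rif1 DNA. The rad3 probes stood at 69.0% and 81.5% in rif1Δ, and at 10.04% and 4.57% in rif1Δ rad3Δ. The input DNA of the rif1Δ rad3Δ arrays is labelled as cdc25-22 alone, but its rad3 probes stood at 5.46% and 3.35% and its rif1 probes at 2.91% and 1.47% of the input median, which goes against that label. Over all genes the replicates correlated with r = 0.687 in rif1Δ and 0.856 in rif1Δ rad3Δ, and same-numbered arrays of different strains with 0.382 and 0.419. Replicate 2 of rif1Δ rad3Δ was processed by the scanner software under another protocol than the other arrays. It also had a larger probe-to-probe spread, 0.452 against 0.311 to 0.322 (derivative of the log ratio). The SD of the log2 ratio was larger in both rif1Δ rad3Δ arrays, at 0.576 and 0.649, than in the rif1Δ arrays, at 0.431 and 0.439.

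The sequences before 4 of the genes are shown because the largest differences between the strains lay at the front of genes and before them. For adh1 and tdh1 the region before the gene passed the test, fba1 had the lowest level of the 10 genes there in rif1Δ rad3Δ, and gpd3 is the gene with the smallest difference over its body. Each is the run of 300 bases that ends just before the annotated gene start, read 5′ to 3′ on the coding strand from the RefSeq genome, build ASM294v3, at chrIII:1590992-1591291 (plus strand), chrII:2807295-2807594 (plus), chrII:1688021-1688320 (plus) and chrII:577817-578116 (plus). Capitals mark TATAAA, the core of a TATA box, and CCAAT, a box read by the CCAAT-binding complex in yeasts, either of them on either strand (CCAAT reads ATTGG on the other). These motifs do not overlap each other.
adh1: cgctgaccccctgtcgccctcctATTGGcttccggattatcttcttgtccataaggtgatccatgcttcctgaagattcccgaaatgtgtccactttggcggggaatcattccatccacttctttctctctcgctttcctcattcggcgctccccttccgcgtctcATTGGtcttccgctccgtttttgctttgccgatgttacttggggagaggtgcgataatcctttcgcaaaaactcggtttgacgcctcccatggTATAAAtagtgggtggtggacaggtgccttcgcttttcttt
tdh1: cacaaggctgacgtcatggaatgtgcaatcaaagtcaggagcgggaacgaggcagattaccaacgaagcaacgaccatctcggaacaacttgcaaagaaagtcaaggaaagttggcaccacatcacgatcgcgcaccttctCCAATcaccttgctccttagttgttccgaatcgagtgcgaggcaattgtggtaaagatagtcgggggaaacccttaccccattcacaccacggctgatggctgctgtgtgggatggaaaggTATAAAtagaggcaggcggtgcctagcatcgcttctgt
fba1: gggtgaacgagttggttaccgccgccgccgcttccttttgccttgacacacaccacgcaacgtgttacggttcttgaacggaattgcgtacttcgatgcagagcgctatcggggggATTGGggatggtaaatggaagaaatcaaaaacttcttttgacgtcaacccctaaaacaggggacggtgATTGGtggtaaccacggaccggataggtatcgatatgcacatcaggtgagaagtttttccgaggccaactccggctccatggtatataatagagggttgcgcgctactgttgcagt
gpd3: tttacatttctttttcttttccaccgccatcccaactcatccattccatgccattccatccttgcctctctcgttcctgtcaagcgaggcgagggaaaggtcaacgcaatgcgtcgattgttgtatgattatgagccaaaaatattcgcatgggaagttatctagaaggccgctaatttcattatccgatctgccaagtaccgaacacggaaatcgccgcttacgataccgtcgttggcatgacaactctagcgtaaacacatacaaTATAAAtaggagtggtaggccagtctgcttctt
TATAAA lies 41 bases before the start in adh1, 38 in tdh1 and 33 in gpd3. Among the 10 genes, 6 hold TATAAA in these 300 bases and 5 hold CCAAT, against 51.2% and 41.0% of 5112 genes searched in the same way. The shares are close to those of other genes, and a match is a string of letters, not a measured site.

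In rif1Δ cells Rad52 signal was above the array median over almost all of these genes. The median of the 10 gene bodies was 0.81 on the log2 scale of ChIP over input, against -0.016 for all genes. Of the 10, 9 stood above the array median by limma's test, with an adjusted p (Benjamini-Hochberg over all genes) under 0.05, and 5.3% of all genes did. The call rests on having both arrays: without either rif1Δ array, 1 of the 10 passed, against 1.15% of all genes without replicate 1 and 1.07% without replicate 2. The highest levels were those of adh1, with 1.14 ± 0.25, pdc101, with 1.13 ± 0.26, and tdh1, with 1.12 ± 0.20 (SD, n = 2 arrays each), which did not differ beyond their spread. They held ranks 30, 31 and 33 of the 4864 genes. The lowest were gpm1, with 0.49 ± 0.067, and gpd3, with 0.32 ± 0.060 (SD, n = 2 each), at ranks 210 and 432. The gaps from eno101 to pgk1, from fba1 to gpm1 and from gpm1 to gpd3 were larger than the SD of either neighbour, and all other neighbours in the order were within it.

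In rif1Δ rad3Δ cells the same genes stood lower. Their median was 0.20, against -0.017 for all genes, and 4 of the 10 were above the array median (tdh1, gpd3, pyk1 and pdc101), against 24.9% of all genes. The count of the 10 was smaller without replicate 2 of this strain, where the share of all genes is not given here. The strains were then compared in 1 fit over all 4 arrays. Of the 10 genes, 6 were lower in rif1Δ rad3Δ than in rif1Δ (limma, adjusted p under 0.05), against 12.2% of all genes, namely fba1, tpi1, tdh1, pgk1, eno101 and adh1. None was higher, where 10.8% of all genes were, and all 10 differences were below 0. The median difference was -0.66, against -0.036 for all genes. In 8 of the 10 genes both rif1Δ rad3Δ arrays lay below both rif1Δ arrays, against 37.2% of all genes, and in none of the 10 above them, against 30.2%. With 2 arrays a strain, an exact permutation test of a single gene cannot go below p = 0.333, and nothing in the labels says that the replicates were separate cultures, so the p-values describe how these arrays vary, and that variation may be technical only.

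**Figure D1:**
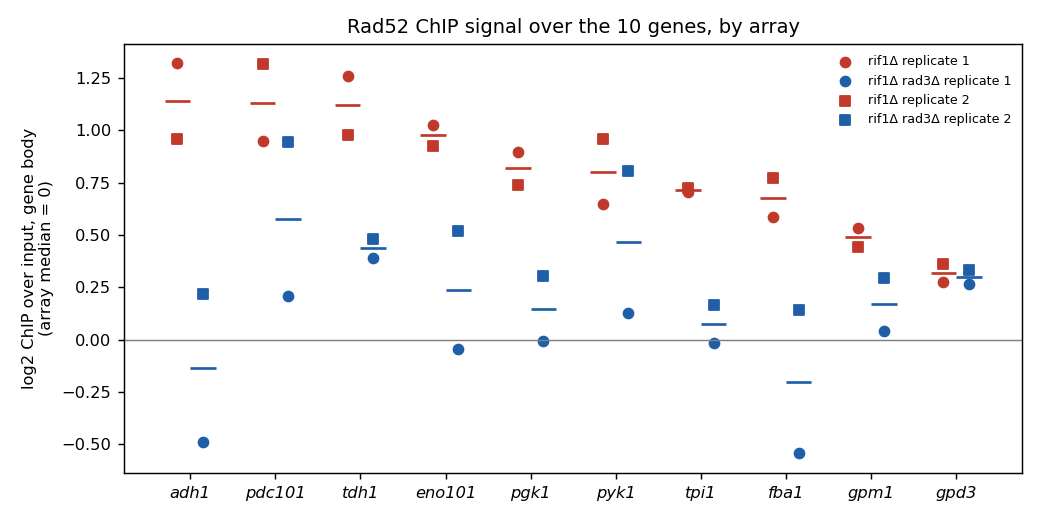
Mean log2 ChIP over input over each gene body, with each array centred at its median of 0; red marks are the 2 rif1Δ arrays, blue marks the 2 rif1Δ rad3Δ arrays, circles replicate 1, squares replicate 2 and dashes the strain means. Genes run from the highest to the lowest rif1Δ mean; the blue marks lie below the red ones in 8 genes, and those of pyk1 and gpd3 overlap with them.

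The first of these steps are encoded by fba1 and tpi1. For fba1 (SPBC19C2.07, chrII:1688321-1689599, build ASM294v3 here and for the genes that follow), the aldolase that splits fructose bisphosphate into triose phosphates, the log2 values were 0.58 and 0.77 in rif1Δ and -0.54 and 0.14 in rif1Δ rad3Δ. The strains differed by -0.88 ± 0.22 (SE and n = 2 arrays per strain for this and the following genes, limma adjusted p = 0.0317), and rif1Δ rad3Δ replicate 1 lay well below the other 3 arrays. Without that array the fba1 difference was -0.54 (limma adjusted p = 0.0375), and over the coding span alone it was -0.78 and did not pass (limma adjusted p = 0.0771). For tpi1 (SPCC24B10.21, chrIII:939913-940869), the isomerase that interconverts the triose phosphates, the values were 0.70 and 0.72 in rif1Δ and -0.018 and 0.17 in rif1Δ rad3Δ. The arrays of each strain lay close together, and the difference was -0.64 ± 0.12 (SE, limma adjusted p = 0.0181), a signal 1.56-fold lower.

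The 2 genes for glyceraldehyde-3-phosphate dehydrogenase, the enzyme that forms NADH in glycolysis, gave different values. For tdh1 (SPBC32F12.11, chrII:2807595-2809051) the levels were 1.26 and 0.98 in rif1Δ and 0.39 and 0.48 in rif1Δ rad3Δ, with no overlap. The difference was -0.68 ± 0.14 (SE, limma adjusted p = 0.0193). For gpd3 (SPBC354.12, chrII:578117-580056) the levels were 0.27 and 0.36 in rif1Δ and 0.26 and 0.33 in rif1Δ rad3Δ, so that the arrays of the strains overlapped. Its difference was -0.019 ± 0.12 (SE, limma adjusted p = 0.920), with a 95% interval from -0.29 to 0.25. The coding sequences of tdh1 and gpd3 are 93.0% identical, with a longest identical run of 203 bases. The array has no probe between 245 and 1140 bp from the start of tdh1, nor between 1014 and 1654 bp in gpd3, and tdh1 rests on 3 probes against 6 for gpd3. In tdh1 the probe at 245 bp lies wholly within the coding span, that at 40 bp lies across its start and that at 1140 bp lies past its end. Probe sequences were not compared between the genes, so how far probes in the coding spans share signal was not tested.

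The next enzymes of the pathway fell by like amounts or did not pass. For pgk1 (SPBC14F5.04C, chrII:4157821-4159461), the phosphoglycerate kinase that makes ATP, the values were 0.90 and 0.74 in rif1Δ and -0.0050 and 0.30 in rif1Δ rad3Δ, and the difference was -0.67 ± 0.14 (SE, limma adjusted p = 0.0233). For eno101 (SPBC1815.01, chrII:2201196-2202652), an enolase, they were 1.03 and 0.93 in rif1Δ and -0.043 and 0.52 in rif1Δ rad3Δ, and the difference was -0.74 ± 0.19 (SE, limma adjusted p = 0.0334). In both genes every rif1Δ rad3Δ array lay below every rif1Δ array. Without rif1Δ rad3Δ replicate 1 the eno101 difference was -0.46 and did not pass (limma adjusted p = 0.0660). With normexp, another background correction, that of pgk1 was -0.48 and did not pass (limma adjusted p = 0.0664). For gpm1 (SPAC26F1.06, chrI:5173864-5174654), the phosphoglycerate mutase, measured by 2 probes, the values were 0.54 and 0.44 in rif1Δ and 0.041 and 0.30 in rif1Δ rad3Δ. These arrays did not overlap either, but the difference of -0.32 ± 0.13 (SE) did not pass (limma adjusted p = 0.118). It passed with normexp, at -0.54 (limma adjusted p = 0.0384), and was -0.19 without rif1Δ rad3Δ replicate 1. For pyk1 (SPAC4H3.10C, chrI:3844743-3846675), the pyruvate kinase, rif1Δ rad3Δ replicate 2, at 0.81, stood above rif1Δ replicate 1, at 0.65. The other 2 arrays were at 0.13 in rif1Δ rad3Δ and 0.96 in rif1Δ, and the difference was -0.34 ± 0.23 (SE, limma adjusted p = 0.303). It was 0.0028 without rif1Δ rad3Δ replicate 1, and it passed without replicate 2, at -0.67 (limma adjusted p = 0.0131).

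Of the fermentation genes, adh1 had the largest difference of the 10. For adh1 (SPCC13B11.01, chrIII:1591292-1592889), the main alcohol dehydrogenase, the values were 1.32 and 0.96 in rif1Δ and -0.49 and 0.22 in rif1Δ rad3Δ. The difference was -1.28 ± 0.24 (SE, limma adjusted p = 0.0179), a signal 2.42-fold lower, and it ranked 8 among the decreases of all 4864 genes. For pdc101 (SPAC1F8.07C, chrI:101715-103597), a pyruvate decarboxylase, the values were 0.95 and 1.32 in rif1Δ and 0.21 and 0.94 in rif1Δ rad3Δ. They touched at their edges without overlap, and the difference of -0.56 ± 0.25 (SE) did not pass (limma adjusted p = 0.134). Its 95% interval ran from -1.14 to 0.022. The difference was -0.37 without rif1Δ replicate 2 and -0.19 without rif1Δ rad3Δ replicate 1. It passed without rif1Δ rad3Δ replicate 2, at -0.92 (limma adjusted p = 0.00206), and with all arrays scaled to one spread, at -0.89 (limma adjusted p = 0.0468).

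The arrays were spread over 3 slides. Replicate 1 of both strains shared a slide, while each replicate 2 had a slide of its own. Within the shared slide all 10 differences were below 0, from -1.81 for adh1 to -0.0098 for gpd3. With slide as a term of the model no degree of freedom is left for a test, and the estimate is this within-slide difference. In the replicate 2 arrays, which were on different slides, the differences ran from -0.74 for adh1 to -0.027 for gpd3. The count of lower genes depended on single arrays. It was 0 without rif1Δ replicate 1, where the differences still ranged as low as -1.10 for adh1, and 2 without rif1Δ replicate 2. It was 5 without replicate 1 and 8 without replicate 2 of rif1Δ rad3Δ. The same settings called 2.8%, 2.75%, 10.6% and 10.8% of all genes lower.

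Base content also moved with the result. The 10 genes have an A+T share of 49.4% to 56.1%, with a median of 52.2%, against a median of 63.2% over all genes. Ordered from the lowest A+T share, eno101 is number 2, fba1 number 5, pdc101 number 10 and tdh1 number 13 of the 4864 genes. Across all genes the difference between the strains correlated with A+T share with r = 0.352 (n = 4864 genes of the same 4 arrays, which are not independent replicates). Within single arrays that r was -0.195 and -0.349 in rif1Δ and 0.165 and 0.106 in rif1Δ rad3Δ. When the trend on the A+T share around each probe was removed from every array, 1 of the 10 genes remained lower by the test, adh1 with -0.92 (limma adjusted p = 0.0374), and 7.92% of all genes were lower. The median difference of the 10 was then -0.31, with 8 of 10 below 0, and 5 of 10 genes were above the array median in rif1Δ, against 4.73% of all genes. The part of base content in the difference was not tested.

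**Figure D2:**
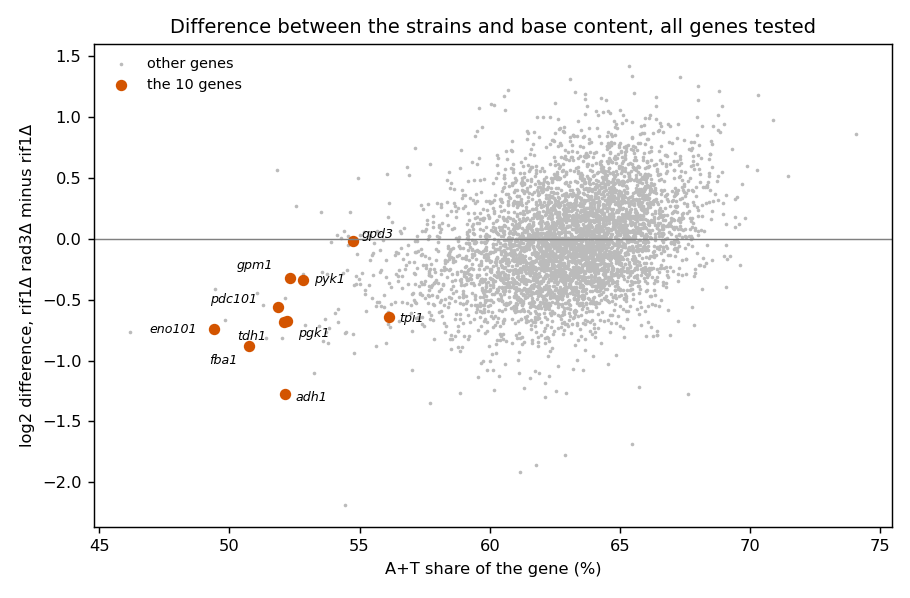
Log2 difference between the strains (rif1Δ rad3Δ minus rif1Δ) over the gene body against the A+T share of the gene in percent; grey points are the other genes tested and orange points the 10 genes. The 10 genes sit between 49.4% and 56.1% A+T, at the left edge of all genes, and all have differences below 0.

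The ratio holds 2 measurements, the ChIP channel and the input channel, and each was fitted on its own against its array median. In the ChIP channel 9 of 10 differences between the strains were below 0, with a median of -0.26, against 0.0076 over all genes. None passed (limma, adjusted p of at least 0.0523, 3 at an unadjusted p under 0.05), where 5.02% of all genes were lower. In the input channel all 10 differences were above 0, with a median of 0.22, against 0.036 over all genes. None passed there either (limma, 3 at an unadjusted p under 0.05), and 0.0411% of all genes were lower in that channel and 0 higher. For both channels the shares of all genes with such signs or such unadjusted p-values are not given here, so those counts are descriptive. For adh1 the difference was -0.95 ± 0.37 in the ChIP channel and 0.32 ± 0.19 in the input. For tdh1 it was -0.63 ± 0.18 in the ChIP channel and 0.047 ± 0.11 in the input. The tdh1 difference thus lay mostly in the ChIP channel. For adh1 the ChIP values were 2.86 and 1.87 in rif1Δ and 0.97 and 1.87 in rif1Δ rad3Δ. The replicate 2 arrays of adh1 were thus alike in the ChIP channel. They differed in the input, at 0.95 in rif1Δ and 1.67 in rif1Δ rad3Δ. For fba1 the ChIP channel gave -0.19 ± 0.38 and the input 0.68 ± 0.24, and for eno101 they gave -0.19 ± 0.30 and 0.54 ± 0.16 (SE, n = 2 arrays per strain in all of these). In fba1 and eno101 the input difference was the larger of the pair. For gpd3 both channels were higher by a like amount, 0.20 ± 0.16 and 0.21 ± 0.12 (SE). The part of the input in the ratio was not tested.

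**Figure D3:**
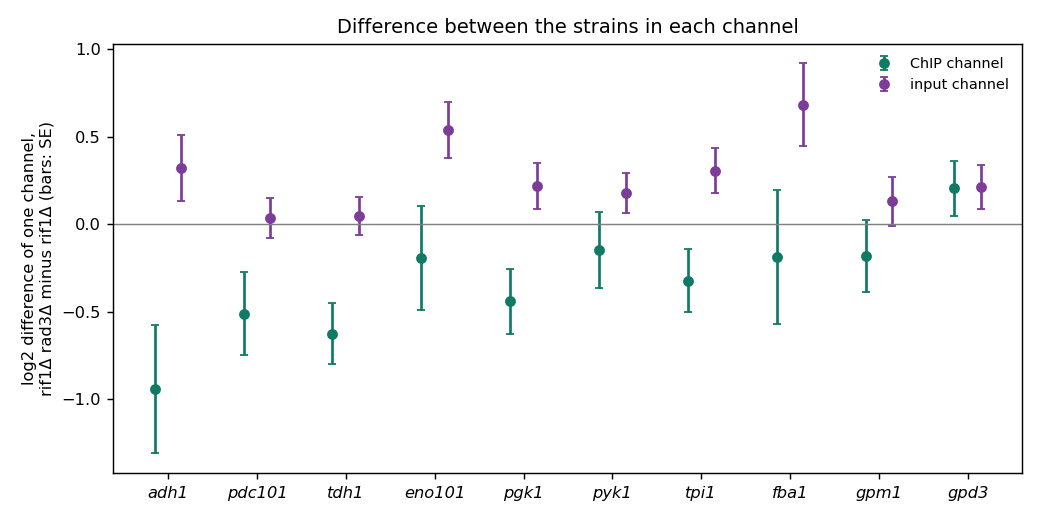
Log2 difference between the strains (rif1Δ rad3Δ minus rif1Δ) in the ChIP channel, green, and in the input channel, purple, for each gene, with bars of 1 SE from limma and 2 arrays per strain. The green points lie below 0 in 9 genes and the purple points above 0 in all 10.

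Along the genes, the median difference was larger at the front than at the back. The front part of a gene is taken here up to its midpoint in the direction of transcription, and the back part beyond it. In the front part 5 of 10 genes were lower in rif1Δ rad3Δ (limma adjusted p under 0.05), against 4.71% of all genes: adh1 with -1.44 ± 0.23, fba1 with -1.03 ± 0.20, tdh1 with -0.99 ± 0.19, pgk1 with -0.85 ± 0.14 and tpi1 with -0.80 ± 0.15 (SE each). None was higher there, against 4.79% of all genes. When any 1 of the 4 arrays was left out, 0 of the 10 passed there. In the back part none passed (limma, 3 at an unadjusted p under 0.05), against 1.84% of all genes. That count depended on rif1Δ rad3Δ replicate 2, and the share of all genes without that array is not given here. The median difference in the back part was -0.38, compared with -0.82 in the front. Over all genes, 1468 of 4943 had an unadjusted p under 0.05 in the back part (limma, either direction). For tdh1 the difference was -0.99 in front and -0.076 ± 0.22 (SE) at its single probe in the back part.

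The contrast between back and front was then tested itself. In rif1Δ the back stood above the front by a median of 0.15, and in rif1Δ rad3Δ by a median of 0.56. None of the 10 genes passed within rif1Δ (limma, 2 at an unadjusted p under 0.05), and none within rif1Δ rad3Δ (7 at an unadjusted p under 0.05, the lowest adjusted p being 0.0577 for eno101), where 0 and 0.476% of all genes had a higher back part. The count within rif1Δ rad3Δ depended on the setting and on single arrays, and it was 4 with normexp. The share of all genes with normexp is not given here, so that count is not read as a result about the 10. The change of this contrast between the strains was above 0 in all 10 genes, from 0.12 to 0.91. It passed in none of them (limma, 2 at an unadjusted p under 0.05, tdh1 and eno101), nor in any of the 4832 genes tested. Among these 4832 genes an unadjusted p under 0.05 (limma, either direction) was found in 585 within rif1Δ and 1355 within rif1Δ rad3Δ. For the change between the strains it was found in 452. Front and back are therefore not shown to differ from each other in their response.

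Lower values also lay before most of the genes. In the 500 bp before the gene, 2 of 10 genes were lower in rif1Δ rad3Δ, against 0.821% of all genes. Of the 10 differences 8 were below 0, against 1901 of 4993 genes. Those of tpi1, with 0.381, and gpd3, with 0.385, were above 0. For adh1 the values there were 0.75 and 0.96 in rif1Δ and -0.55 and -1.05 in rif1Δ rad3Δ, with a difference of -1.66 ± 0.25 (SE, limma adjusted p = 0.0243). For tdh1 they were 2.45 and 1.59 in rif1Δ and 0.81 and 0.38 in rif1Δ rad3Δ, with a difference of -1.43 ± 0.31 (SE, limma adjusted p = 0.0372). The strains did not overlap in either window, and both tdh1 values in rif1Δ were above any gene body value of the 10. The adh1 window holds 1 probe. The tdh1 window holds 2, and the one at position -486 from the start, with 3.41 in rif1Δ replicate 1, was too dim to pass the scanner software's background test on all arrays. The other, at position -288, gave 1.48 and 1.81 in rif1Δ and 0.33 and 0.14 in rif1Δ rad3Δ. Leaving out 1 array gave between 1 and 5 lower genes, scaling all arrays to one spread gave 0, and removing the A+T trend gave 1, adh1.

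In the same windows rif1Δ rad3Δ stood below the array median in 3 of the 10 genes, against 13% of all genes: fba1 with -1.30, adh1 with -0.80 and pyk1 with -0.58. In fba1 the 2 arrays were at -0.99 and -1.61, and the rif1Δ arrays at -0.42 and -0.22. The level before gpd3, 0.55 in rif1Δ rad3Δ, passed on the other side, where 22% of all genes did. In rif1Δ 1 of the 10, tdh1 with 2.02, was above the median, against 0.921% of all genes. The window overlaps a coding gene for 2 of the 10 genes (pdc101 and gpm1) and some annotated gene for 8, so that it is not always intergenic.

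After the genes the differences between the strain means had the other sign, but none passed. In the 500 bp after the gene all 10 differences were above 0, from 0.14 for adh1 to 0.65 for pdc101, with adjusted p of at least 0.331 (limma, 0 at an unadjusted p under 0.05), against 0.956% of all genes higher and 0.279% lower. In rif1Δ rad3Δ 6 of 10 genes stood above the array median there, against 19.6% of all genes: pdc101 with 1.26, adh1 with 1.16, tdh1 with 0.90, eno101 with 0.88, pyk1 with 0.83 and gpd3 with 0.64. In rif1Δ none passed (limma, 4 at an unadjusted p under 0.05), with levels up to 1.01 for adh1, and 2.89% of all genes passed. An unadjusted p under 0.05 for that level was found in 935 of 5022 genes (limma, either direction). On the slide shared by the replicate 1 arrays, however, 7 of the 10 differences after the genes were below 0. With the A+T trend removed, 2 of the 10 differences between the strain means were below 0. The rif1Δ rad3Δ level after the genes came mostly from 1 array. Replicate 2 was above replicate 1 in all 10 genes, with medians of 1.37 and 0.23, and without replicate 2 none of the 10 passed. For adh1 the values were 0.49 and 1.82 in rif1Δ rad3Δ and 1.08 and 0.95 in rif1Δ, so that the strains overlapped. The windows after the genes overlap a coding gene for 3 of 10 (pdc101, eno101 and tpi1) and some annotated gene for all 10.

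**Figure D4:**
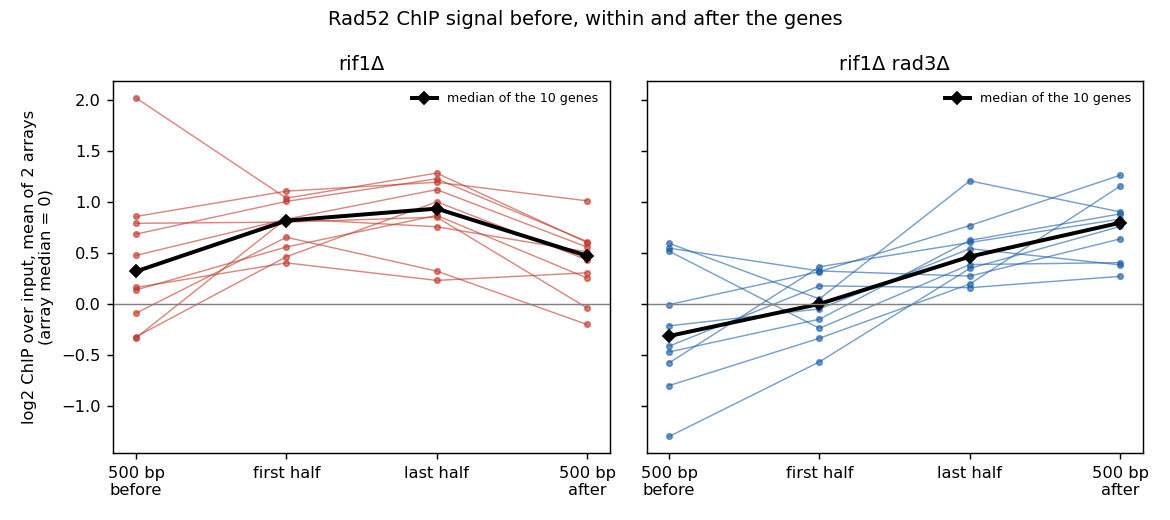
Mean log2 ChIP over input of the 2 arrays of a strain in the 500 bp before, the front part, the back part and the 500 bp after each of the 10 genes; thin lines are genes and the black line their median. The median in rif1Δ goes from 0.32 to 0.82, 0.94 and 0.47, and that in rif1Δ rad3Δ from -0.31 to 0.00063, 0.46 and 0.80.

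Most single probes went the same way, but only probes of adh1 passed on their own. The 10 genes hold 54 probes, of which 52 were lower in rif1Δ rad3Δ than in rif1Δ. Of the 54, 3 passed on their own (limma, adjusted over all 42548 probes), against 0.475% of all probes, and 25 had an unadjusted p under 0.05. The shares of all probes with a difference below 0 or with such an unadjusted p are not given here. Probes of the same gene are also not independent, so the counts of 52 and 25 are descriptive. The 3 that passed all lie in the front part of adh1, at 10, 180 and 366 bp from its start. At 366 bp the values were 1.22 and 1.03 in rif1Δ and -0.87 and -0.43 in rif1Δ rad3Δ, and the difference was -1.77. Low values in rif1Δ rad3Δ went on before adh1, with -0.80 at position -324, -0.39 at -580 and -1.06 at -1432 from its start. Past adh1, 1736 bp from its start, the rif1Δ arrays stood at 1.04 and 1.12 and the rif1Δ rad3Δ arrays at 0.42 and 2.19, one below and the other above them. In gpd3 4 of 6 probes were below 0 in their difference, which is where the 2 exceptions among the 54 lie. Of the 54 probes 3 were too dim to pass the background test on all arrays, 1 in eno101 and 2 in pgk1, and none was saturated.

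**Figure D5:**
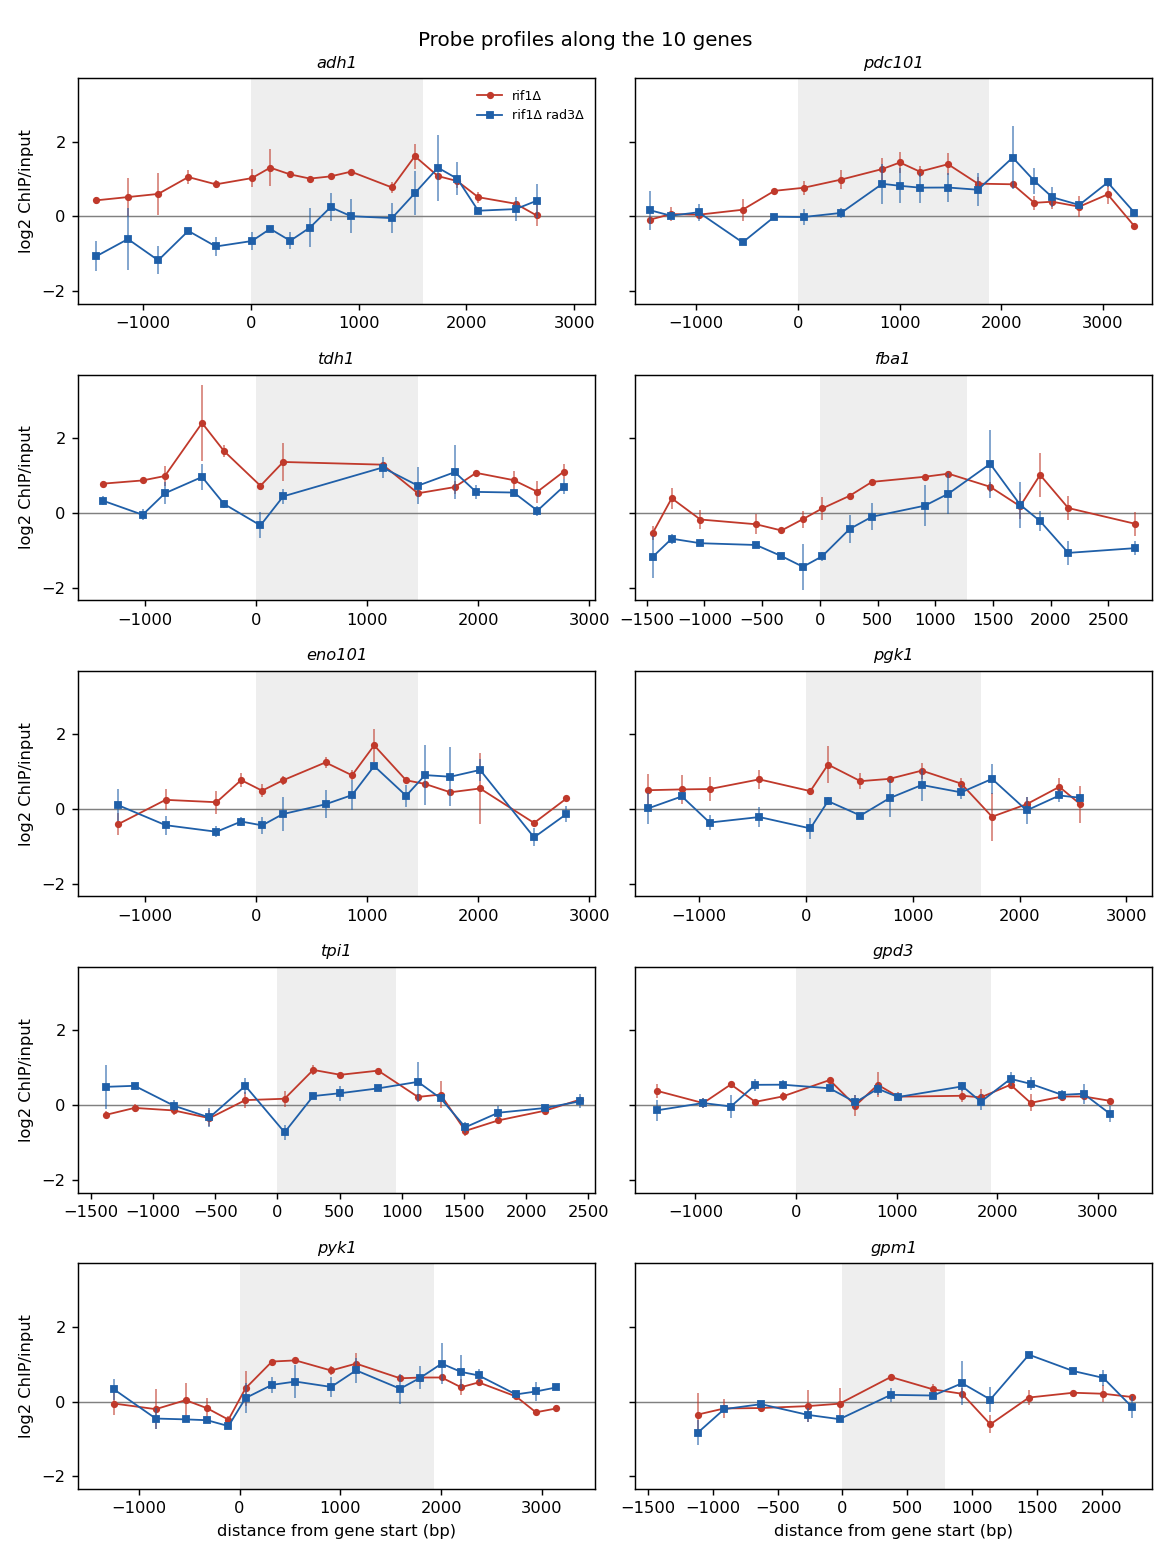
Mean log2 ChIP over input of each probe against its distance in bp from the gene start, in the direction of transcription, for the 10 genes; red is rif1Δ, blue rif1Δ rad3Δ, vertical bars run between the 2 arrays of a strain and the grey field is the annotated gene. In adh1 the blue line lies below the red one from position -1432 to the gene end and in gpd3 the lines cross within the gene.

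Genes beside the 10 were measured for comparison. Of the 20 nearest protein-coding neighbours 19 had enough probes, with a median difference of -0.15. By the same test 3 of the 19 were lower and 1 higher, shares near or below the 12.2% and 10.8% of all genes. Lower were mug124 (-0.58 ± 0.14, SE) and the splicing factor gene prp38 (-1.03 ± 0.21, SE), on both sides of fba1. The S-adenosylmethionine synthetase gene sam1, 2607 bp before pgk1, was lower with -0.82 ± 0.16 (SE). The higher one was the dehydrogenase gene SPCC24B10.20 before tpi1, with 0.74 ± 0.19 (SE).

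Other genes of sugar metabolism were taken from lists chosen by pathway. Of 15 further genes of glycolysis, gluconeogenesis and fermentation 13 were measured, with a median difference of -0.29, 5 lower and 0 higher (limma, adjusted p under 0.05), where 12.2% of all genes were lower and 10.8% higher. Lower were pdc102, another pyruvate decarboxylase gene, with -1.34 ± 0.33, the alcohol dehydrogenase gene adh4, with -1.005 ± 0.19, and pfk1, the phosphofructokinase, with -0.66 ± 0.11 (SE each). The hexokinase gene hxk1 was lower with -0.45 ± 0.12, as was fbp1, the fructose bisphosphatase of gluconeogenesis, with -0.52 ± 0.13 (SE each). In rif1Δ adh4 stood at 1.20 and 0.63, among the levels of the 10 genes, while fbp1 stood at -0.11 and -0.22 and hxk1 at 0.057 and 0.10. A value lower in rif1Δ rad3Δ than in rif1Δ was thus found in genes with and without a high level in rif1Δ. In rif1Δ rad3Δ adh4 was near the array median, at -0.026 and -0.15. There fbp1 stood at -0.56 and -0.82 and hxk1 at -0.44 and -0.31.

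In the side branches of the pathway the lists are short, and their counts stand beside the same 12.2% lower and 10.8% higher of all genes. Of 7 glycerol and dihydroxyacetone genes 6 were measured and 2 were lower, the dihydroxyacetone kinase genes dak1 (-0.64 ± 0.11, SE) and dak2 (-0.66 ± 0.19, SE). The measured genes on either side of dak2 also had differences below 0. They were SPAC977.17, with -0.65 ± 0.18 (SE, limma adjusted p = 0.0421), and SPAC977.15, with -0.41 ± 0.24 (SE), which did not pass. Of 7 pentose phosphate genes 1 was lower, zwf1, the glucose-6-phosphate dehydrogenase, with -0.48 ± 0.12 (SE). Another, rki1, the ribose-5-phosphate isomerase, was higher with 0.72 ± 0.11 (SE). Of 5 measured trehalose and acetate genes 1 was lower, the aldehyde dehydrogenase gene atd1, with -1.24 ± 0.19 (SE) from levels of 1.34 and 1.72 in rif1Δ. The citric acid cycle, which oxidises pyruvate in mitochondria, had 13 of 14 genes measured and a median difference of -0.060. Of its genes idh1, an isocitrate dehydrogenase subunit, was lower with -0.80 ± 0.11. In this list cit1, the citrate synthase, was higher with 0.59 ± 0.12, as were pdb1, a pyruvate dehydrogenase subunit, with 0.72 ± 0.16 and sdh2, a succinate dehydrogenase subunit, with 0.51 ± 0.13 (SE each).

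Other strongly transcribed gene classes were set beside the 10 as a description. Core histone genes, 7 of 9 measured, had a median of 1.01 in rif1Δ and a median difference of -0.81, with 2 of 7 lower by the test, hht1 and hta2. Cytosolic ribosomal protein genes, 98 of 131 measured, had a median of 0.35 in rif1Δ and a median difference of -0.38, with 31 lower and 2 higher, against 12.2% and 10.8% of all genes. The median A+T shares were 61.9% for the histone genes and 57.5% for the ribosomal protein genes. The 5 genes outside the list whose 4 array values lay nearest to the mean of the 10 (Euclidean distance) were gar2, a nucleolin gene, at 0.179, shm1, a serine hydroxymethyltransferase gene, at 0.211, and tef3, a translation elongation factor gene, at 0.214. They were followed by sam1 at 0.241 and sks2, a ribosome-associated chaperone gene, at 0.246. The 10 genes themselves lay between 0.162 and 0.768 from their mean, so that gar2 was nearly as near to it as the closest of them.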

How the data were processed

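Rad52 ChIP DNA and input DNA were hybridised together on 2-colour Agilent arrays, 2 for each strain, whose 60-base probes tile the genome every 265 bp (median). Per the labels the ChIP sample carried Cy3 and the input Cy5 on all arrays, although the labels' protocol text speaks of RNA. Per the file headers and the submitters' processing notes the arrays were read with Agilent Feature Extraction 10.7.3.1. The headers name its ChIP protocol for rif1Δ rad3Δ replicate 2 and its CGH protocol for the other arrays, so the processed signals were not all made alike. The deposited intensity values used here are its processed signals, background-subtracted and dye-normalized per the file headers. The deposited log10 ratio is Cy5 over Cy3 and gave the same direction. A value table from the authors holds the linear ratio of Cy3 over Cy5 without centring, with column medians of 0.985, 1.01, 0.968 and 1.01.

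For every probe the log2 of the ChIP signal over the input signal was taken and centred on each array's median over chromosomes I to III, after 2513 control spots and 97 outlier probes were left out, which kept 42548 probes. The scanner software called 96.2% to 99.8% of the probes of a channel well above background, and the number of arrays limits the precision. Probes were averaged over genes with at least 2 of them. Gene limits come from RefSeq, build ASM294v3, while the file headers name an older build. Within 100 kb of each of the 10 genes, probe brightness matched local base content best within 30 bp of the offset used, which is 0 except for the arm of chromosome I with pyk1 and gpm1, where 6130 bp were subtracted. Genes, gene parts, probes and single channels were each fitted in R 4.3.3 by lmFit and eBayes of limma 3.58.1, with all 4 arrays in the model and a mean per strain, two-sided, with Benjamini-Hochberg adjustment over all features of the table at 0.05. All adjusted p-values are limma's. Intervals are at 95%.

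The genes named are the 10, their nearest neighbours, the 5 genes nearest in array values and pathway genes past the threshold. The members and lists were chosen with earlier results of these data known. Replicate numbers come from the labels. Deviations of same-numbered arrays correlated with r = 0.329, and with 2 pairs the numbers are not taken to pair the arrays. Alternatives covered centring, background correction, dye normalization, spread, A+T trend, replicate block, gene limits, probe filters and each array left out. The front and back of a gene fitted on their own, and levels after the genes, were added after seeing the data.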

Additional observations from a re-analysis of the deposited data

How the results depend on the processing

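Of the 10 genes, the count lower in rif1Δ rad3Δ over the gene body was 6, and it stayed between 4 and 8 with other centring, normexp, loess, one spread, the replicate block, probe filters, the coding span and without either rif1Δ rad3Δ array. It was 1 with the A+T trend removed and between 0 and 8 when each array was left out in turn, where the lone array of a strain is assumed to vary like those of the other strain. The count above the array median in rif1Δ was 5 with the A+T trend removed and between 1 and 10 with an array left out. That in rif1Δ rad3Δ was 2 over the coding span, where 8 of the 10 genes had enough probes, and between 1 and 4 with an array left out.

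In the front part of the genes the count was 2 with one spread, 0 without the A+T trend and 0 whichever of the 4 arrays was left out. In the back part it was between 0 and 2 with an array left out. In the 500 bp before the genes it was 0 with one spread, 1 without the A+T trend and between 1 and 5 with an array left out. In the 500 bp after, the count above the median in rif1Δ rad3Δ was 3 with one spread and between 0 and 9 with an array left out. The count with the back part above the front in rif1Δ rad3Δ was 4 with normexp and between 0 and 4 with an array left out.

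Of all genes, 595 were lower and 523 higher. One spread gave 307 and 276, normexp gave 342 higher, the A+T trend removal gave 385 lower, and leaving out an array gave 134 to 525 lower and 144 to 527 higher. With replicate number as a block, the counts over all genes were 1052 lower and 882 higher. Of the 10 genes the block called 7 lower over the body, against 21.6% of all genes. It called 9 lower in the front part and 6 in the 500 bp before, and 6 with a higher back part in rif1Δ rad3Δ. For these parts the shares of all genes under the block are not given here, so these counts are not read as results about the 10. The gene added over the body was pdc101, with -0.56 and a limma adjusted p of 0.0101.

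Directions turned only in genes that did not pass. The gpd3 difference was 0.22 with the A+T trend removed, 0.022 with the median over probes, 0.024 without rif1Δ replicate 2 and 0.015 without rif1Δ rad3Δ replicate 1. That of gpm1 was 0.027 with the A+T trend removed and that of pyk1 0.0028 without rif1Δ rad3Δ replicate 1. With each array left out in turn the gpd3 difference ran from -0.061 to 0.024 and that of pyk1 from -0.67 to 0.0028. The cause of these changes was not tested.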
